A study of Mus musculus with 6 samples.

Results

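Wdr72, Fam83h, Relt, Rogdi and Ltbp3 are mouse counterparts of genes whose mutation in people causes inherited enamel defects (amelogenesis imperfecta), and none of them encodes an enamel matrix protein, an ion transporter or an adhesion protein. They are described here across the 6 libraries of a study of store-operated calcium entry in the enamel organ, as the 5 members, of 46603 genes in the count tables, that carry these symbols. Each symbol matched a single gene identifier, and all 5 passed the filter on low counts, applied once over the 6 libraries.

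The tested libraries came from mice labelled as Stim1/2 knockout (DKO, replicates 1, 3 and 4), and the others from wild-type mice (WT, replicates 1, 2 and 3), all on the C57BL/6 strain. STIM1 and STIM2 sense the calcium store of the endoplasmic reticulum, and once it empties they let calcium in through ORAI channels. RNA was taken from primary cells of the lower-incisor enamel organ, the epithelium that holds the ameloblasts. The sources used here do not give the alleles, any Cre driver, the age of the mice or whether animals were pooled. Nothing in the labels says that replicates came from separate animals, so a p-value measures only the spread between these libraries.

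Enamel is laid down by ameloblasts in a secretory stage, in which they export matrix, and then hardened in a maturation stage, in which they take back degraded matrix and move ions and acid. WDR72 and ROGDI work on the vesicle side of this. WDR72 is a beta-propeller protein of intracellular trafficking in maturation-stage ameloblasts, and ROGDI belongs, with DMXL1, DMXL2 and WDR7, to the mammalian counterpart of the yeast RAVE complex, which assembles the vacuolar proton pump (V-ATPase). FAM83H anchors casein kinase 1 and organises keratin filaments. RELT is a receptor of the tumour necrosis factor receptor superfamily, and LTBP3 binds latent TGF-beta and helps to place it in the extracellular matrix.

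Library depth ran from 18609759 to 22829411 counts, and levels are given below as counts per 1e6 after TMM scaling (CPM). The targeted genes were lower in every library labelled DKO: Stim1 stood at 107, 143 and 125 CPM in DKO 1, 3 and 4, against 413, 491 and 362 CPM in WT 1, 2 and 3, and Stim2 at 105, 136 and 125 CPM, against 229, 310 and 245 CPM. The dental epithelium marker Krt14 averaged 2953 CPM in DKO and 4080 CPM in WT, so the labelled epithelium was represented. Collagen genes of connective tissue were abundant too, with Col1a1 at 3584 to 4090 CPM in DKO and 2415 to 3883 CPM in WT. Libraries DKO 1, WT 1 and WT 2 had Xist above 100 CPM and the other 3 did not, so the sexes were mixed unequally over the genotypes. In RNA from a whole tissue, fewer cells of a type and less RNA per cell cannot be told apart.

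None of the 5 genes passed the edgeR quasi-likelihood test between DKO and WT at a Benjamini-Hochberg adjusted p below 0.05, where 1.04% of the 14721 tested genes did (0.734% higher and 0.306% lower in DKO). At an unadjusted p below 0.05 the count was 1 of 5, Wdr72, which was lower in DKO, beside 18% of all tested genes at that level, 9.37% lower and 8.67% higher. The DESeq2 Wald test called Wdr72 alone of the 5, and 5.53% of all genes. With limma on log2(FPKM + 1), where 0.576% of all genes were called, 0 of the 5 passed and 1, Wdr72, had an unadjusted p below 0.05. The point estimates ran from Wdr72, at 69.7% of its WT mean, to Rogdi, at 112%. The median log2 fold change of the 5 was -0.025, and that of all tested genes was -0.0068.

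**Figure D1:**
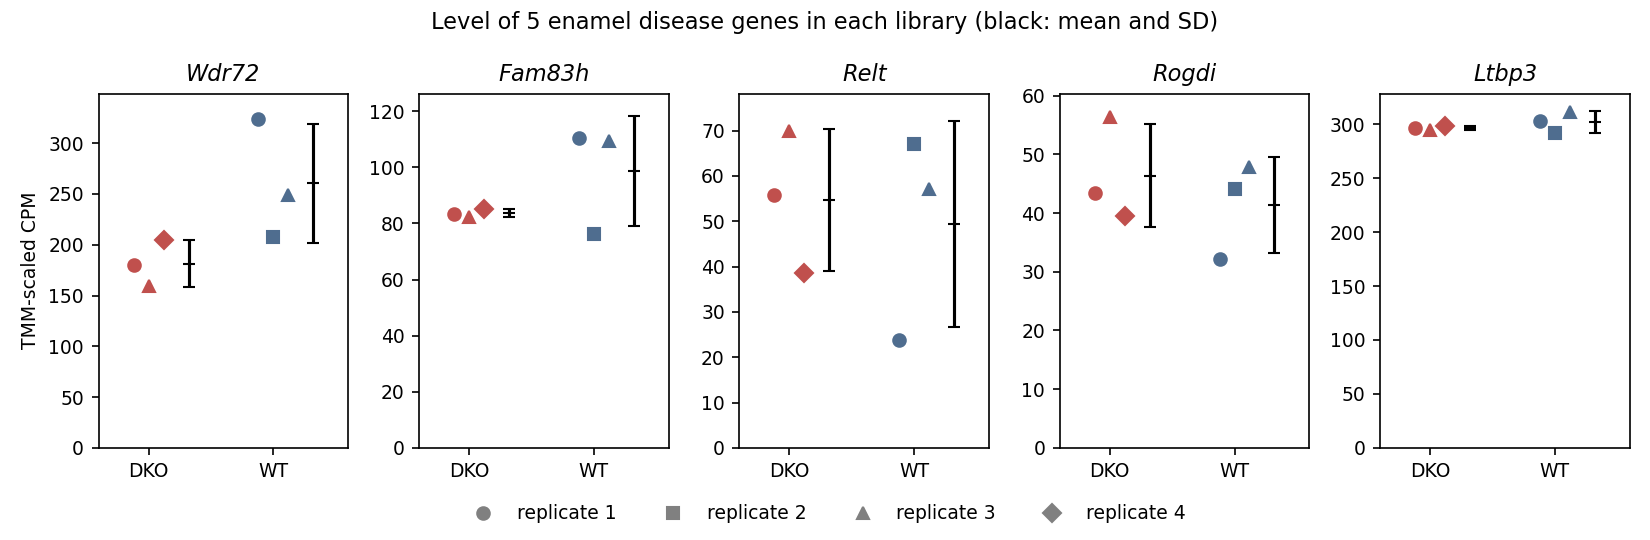
TMM-scaled CPM (vertical axis, from 0) of the 5 genes in each library, DKO left of WT. Symbols mark the replicate number, and the black bar gives the mean and SD of 3 libraries. For Wdr72 all 3 DKO libraries lie below all 3 WT libraries, at up to 205 against at least 208 CPM, while the groups overlap for the other 4 genes.

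The abundance of the genes relative to each other was read from the deposited FPKM values, which divide by transcript length. In DKO, Ltbp3 averaged 54.0 ± 1.56 FPKM, Rogdi 46.4 ± 6.79, Wdr72 34.5 ± 5.06, Relt 22.3 ± 6.92 and Fam83h 17.3 ± 0.610 FPKM (SD, n = 3). In WT the order was Ltbp3 at 54.6 ± 2.29, Wdr72 at 49.5 ± 11.6, Rogdi at 43.5 ± 7.34, Relt at 22.1 ± 9.91 and Fam83h at 20.5 ± 4.33 FPKM (SD, n = 3). Wdr72 and Rogdi thus traded places in the order of the means, Wdr72 being below Rogdi in 3 of 3 DKO libraries and in 2 of 3 WT libraries. Relt and Fam83h did not differ beyond their spread in either group, since Fam83h was the higher of the pair in 1 of 3 DKO and 1 of 3 WT libraries. Ltbp3, Wdr72 and Rogdi were above both of them in each of the 6 libraries. Among the 13378 genes at 1 FPKM or more in WT, the 5 ranked between 1476, for Ltbp3, and 4215, for Fam83h.

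Wdr72 (ENSMUSG00000044976) spans GRCm38 chromosome 9, 74110356 to 74283308, on the plus strand, with up to 20 exons in a transcript. It had 180, 159 and 205 CPM in DKO 1, 3 and 4, against 324, 208 and 249 CPM in WT 1, 2 and 3. The 2 genotypes did not overlap, but DKO 4 and WT 2 nearly touched, and WT 1 was far above the rest. Wdr72 averaged 181 ± 22.9 CPM in DKO and 260 ± 58.9 CPM in WT (SD, n = 3 each). The edgeR estimate was -0.52 on the log2 scale (SE 0.17), with an unadjusted 95% interval from -0.92 to -0.13. The edgeR test across all genes gave p = 0.016 and an adjusted p = 0.177, while the exact permutation test was limited by the number of libraries. That exact two-sided permutation test gave p = 0.1, the smallest that 3 against 3 libraries allow. Groups did not overlap for 23.3% of the tested genes, with all DKO libraries lower for 11.8% and higher for 11.4%, so this separation was common.

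The call of Wdr72 turned with the method. It passed by DESeq2 (adjusted p = 0.0477, where 2.39% of genes were called lower) and with the replicate number as a block (log2 fold change -0.75, edgeR adjusted p = 0.0485, where 1.33% were called lower). Only numbers 1 and 3 occur in both genotypes, so DKO 4 and WT 2 do not bear on the block's estimate for any gene. For Wdr72 these were the libraries that nearly touched. Over all 20 alternatives Wdr72 stayed below 0 on the log2 scale, from -0.75 to -0.27. Without WT 1 it was -0.33, against -0.52 with all libraries.

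Rogdi (ENSMUSG00000022540, chromosome 16, 5008730 to 5013553, minus strand), whose loss in people causes epilepsy together with enamel defects, had 43.3, 56.3 and 39.6 CPM in DKO 1, 3 and 4. In WT 1, 2 and 3 it had 32.2, 44.2 and 47.9 CPM. The groups overlapped, with the highest value in DKO 3 and the lowest in WT 1. On the log2 scale DKO exceeded WT by 0.16 (SE 0.18, 95% interval -0.25 to 0.58), which did not pass (edgeR adjusted p = 0.678). The difference was 0.0015 without DKO 3 and 0.016 without WT 1, and 0.33 with the replicate block. The annotated antisense gene Gm42477 shares 240 exonic bases with Rogdi, which unstranded reads cannot assign, but it held at most 2 counts in any library.

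Fam83h (ENSMUSG00000046761, chromosome 15, 76001093 to 76014336, minus strand) had 83.5, 82.2 and 85.0 CPM in DKO 1, 3 and 4, against 110, 76.1 and 109 CPM in WT 1, 2 and 3. The DKO libraries were nearly equal, with the highest 1.03-fold above the lowest, and they lay between WT 2 below and WT 1 and 3 above. The DKO minus WT difference was -0.24 on the log2 scale (SE 0.14, 95% interval -0.56 to 0.079), with an edgeR adjusted p = 0.405. WT 2 decided the call: without that library the fold change was -0.40 and the gene passed (edgeR adjusted p = 0.0333, where 1.4% of genes were called lower).

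Relt (ENSMUSG00000008318, chromosome 7, 100845847 to 100863446, minus strand) was the most variable of the 5. It had 55.8, 69.9 and 38.5 CPM in DKO 1, 3 and 4, against 23.8, 67.2 and 57.1 CPM in WT 1, 2 and 3, so each group held high and low libraries and WT 1 was the lowest of all. The highest library stood 1.81-fold above the lowest in DKO and 2.82-fold in WT, and the fitted dispersion of Relt was above that of 91.0% of the tested genes. The estimate of 0.15 on the log2 scale (SE 0.37) had an edgeR adjusted p = 0.866. It was 0.75 with the replicate block, -0.18 without WT 1 and -0.062 without DKO 3, and none of these passed. With all libraries, the unadjusted 95% interval of Relt admits a DKO level from 0.616 to 2.003 times that of WT. A lower and a higher level in DKO were thus both compatible with these libraries.

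Ltbp3 (ENSMUSG00000024940, chromosome 19, 5740904 to 5758532, plus strand) was the steadiest. It had 297, 295 and 298 CPM in DKO 1, 3 and 4, against 303, 291 and 311 CPM in WT 1, 2 and 3. The groups overlapped within a few percent, and the dispersion of Ltbp3 was above that of only 14.9% of the tested genes. The difference was -0.025 on the log2 scale (SE 0.076), with an edgeR adjusted p = 0.895 and a 95% interval that bounds the DKO level between 0.870 and 1.11 times WT.

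**Figure D2:**
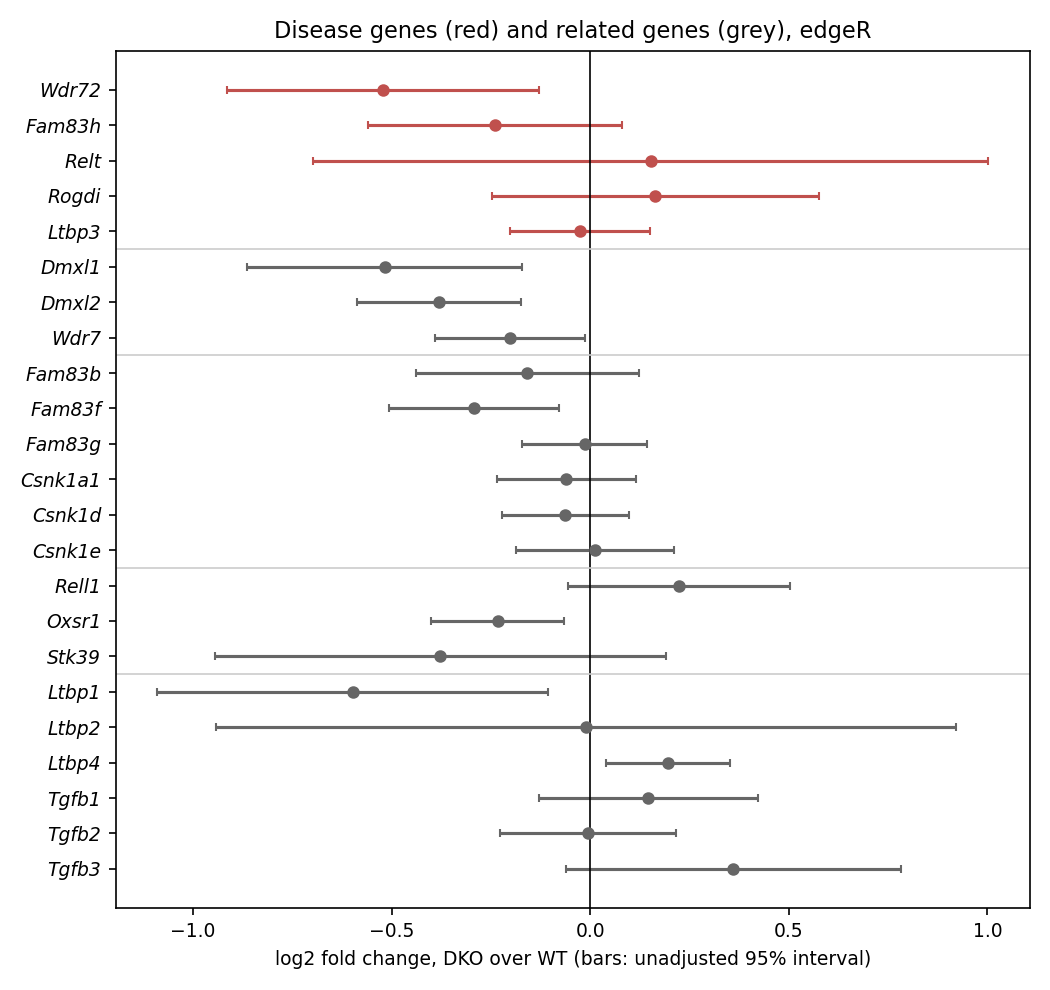
The log2 fold change, DKO over WT, of the 5 disease genes (red) and of genes related to them (grey, in the order of the V-ATPase assembly complex, the FAM83 and casein kinase genes, the RELT partners, and the latent TGF-beta genes), with unadjusted 95% intervals from edgeR. The grey genes are a selection, and of the latent TGF-beta list only LTBP and ligand genes are plotted. The V-ATPase subunits, Traf1, Plscr1 and very low genes are left out. The interval is widest for Relt among the red points and narrowest for Ltbp3, and none of the genes shown passed after adjustment.

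The libraries that set Wdr72, Relt and Rogdi apart were the same ones, WT 1 and DKO 3. These libraries also stood at the ends of the summed level of 9 genes of secretory-stage ameloblasts, most of it Amelx and Ambn: 119100, 183200 and 118900 CPM in DKO 1, 3 and 4, against 71850, 141000 and 111500 CPM in WT 1, 2 and 3. Relt and Rogdi were high where this sum was high, and Wdr72 was low there. Pearson's r over the 6 libraries was 0.887 for Relt (exact permutation p = 0.00972, adjusted 0.259), 0.900 for Rogdi (exact p = 0.0375, adjusted 0.287) and -0.912 for Wdr72 (exact p = 0.0208, adjusted 0.277). Tests were two-sided and adjusted over all 80 relations computed, of the 5 genes with the summed levels of 14 lists and with each other, and none of the 80 passed. Spearman's rho was 0.829 for Relt, 0.657 for Rogdi and -0.829 for Wdr72, with exact permutation p of 0.0583, 0.175 and 0.0583 (adjusted 0.518, 0.842 and 0.518).

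Within the genotypes, after subtracting each group's mean, r with the secretory sum was 0.917 for Relt, 0.895 for Rogdi, -0.952 for Wdr72, -0.669 for Fam83h and -0.431 for Ltbp3. Without DKO 3 and WT 1, r was 0.486 for Relt, -0.168 for Rogdi and -0.312 for Wdr72, so these 3 relations rested on those 2 libraries. Over all 6 libraries Fam83h had r = -0.754 and rho = -0.943, and Ltbp3 r = -0.543 and rho = -0.886, and without DKO 3 and WT 1 their r was -0.821 and -0.841. The exact permutation p of r was 0.0431 for Fam83h and 0.251 for Ltbp3 (adjusted 0.287 and 0.674), and that of rho 0.0167 and 0.0333 (adjusted 0.445 and 0.518). These relations were looked for after the values of the 5 genes were seen.

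With the log2 of the secretory sum as a term in the edgeR fit, the log2 fold change of Wdr72 was -0.27 (SE 0.099, adjusted p = 0.233), against -0.52 without the term. Under that term the estimates of Relt and Rogdi changed sign. Relt was then at -0.29 (SE 0.19, edgeR adjusted p = 0.479), and Rogdi at -0.074 (SE 0.12, edgeR adjusted p = 0.798). That of Fam83h was -0.098 and that of Ltbp3 -0.012. No member passed in this fit, in which 0.795% of all genes did. The term was added after the relations above were seen, so these shifts are a description and no separate test.

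**Figure D3:**
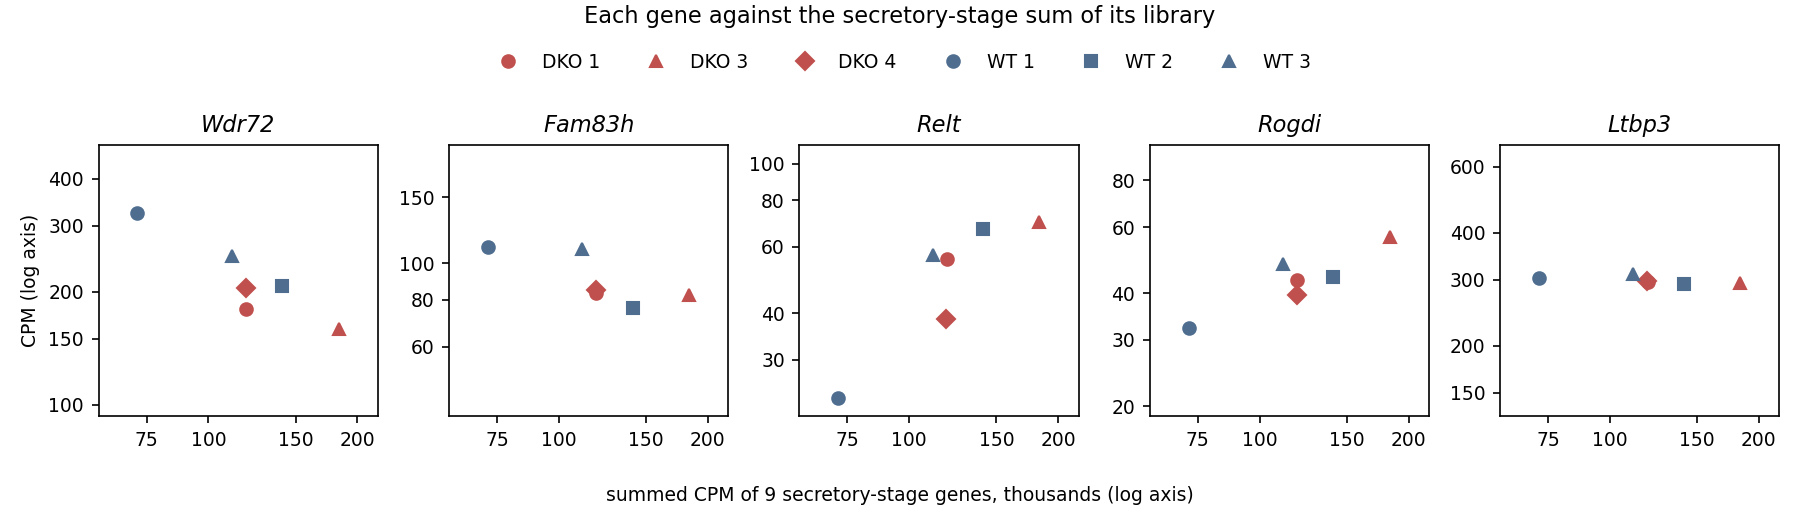
CPM of each of the 5 genes (vertical, log axis, every panel covering the same fold range) against the summed CPM of 9 secretory-stage genes in the same library (horizontal, log axis), with DKO in red and WT in blue. WT 1 lies at the left end and DKO 3 at the right end of each panel, Wdr72 being highest in WT 1 and lowest in DKO 3, and Relt and Rogdi lowest in WT 1 and highest in DKO 3.

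Among the members themselves, the highest r were those of Relt with Rogdi (r = 0.910, exact permutation p = 0.00694, adjusted 0.259; rho = 0.943, exact p = 0.0167, adjusted 0.445) and of Fam83h with Ltbp3 (r = 0.909, exact permutation p = 0.00556, adjusted 0.259; rho = 0.943, exact p = 0.0167, adjusted 0.445). Neither passed after adjustment. For Relt and Rogdi r was 0.737 without DKO 3 and WT 1, and 0.910 within the genotypes. For Fam83h and Ltbp3 it was 0.939 without WT 2 and WT 3, and 0.895 within the genotypes, although Ltbp3 moved over a much narrower range. The other 8 pairs had an adjusted permutation p of r between 0.325 and 0.932.

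The genes whose log2 CPM over the 6 libraries was most like that of each member were taken from 9446 genes with a mean of at least 10 CPM. Among those nearest to Wdr72 were Clca2 and Tmem65 (Pearson's r of 0.995 and 0.994, n = 6 libraries). Clca2, a chloride channel regulator family member, had 23.8, 19.2 and 30.4 CPM in DKO 1, 3 and 4, against 58.8, 27.8 and 37.3 CPM in WT 1, 2 and 3, so it peaked in WT 1 as Wdr72 did. Nearest to Fam83h were Ddx41, Srgap3 and Trmt1 (r from 0.990 to 0.992), and to Relt Zcchc11, Thsd1 and Anks3 (r from 0.989 to 0.995). Nearest to Rogdi were Dbn1, Vamp2 and Phf10 (r from 0.978 to 0.984), and to Ltbp3 Rbck1, Dffa and Flot2 (r about 0.985 or just below). None of these genes passed the edgeR test between the genotypes. The values of r are a description, taken as the highest among all these genes.

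The genes that act with WDR72 and ROGDI were read from a list of 27 V-ATPase assembly factors and subunits, of which 24 were tested. None passed the edgeR test in either direction. At an unadjusted edgeR p below 0.05 the list held 5 genes higher and 3 lower in DKO, beside 8.67% and 9.37% of all tested genes. By DESeq2 1 passed in each direction, Atp6v0e higher and Dmxl1 lower (background for that test 3.14% higher and 2.39% lower). The list's median log2 fold change was 0.088, against -0.0068 over all genes.

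The 3 genes with unadjusted p below 0.05 and lower in DKO were the complex partners. Dmxl1, a rabconnectin, had 166, 183 and 164 CPM in DKO 1, 3 and 4, against 286, 259 and 190 CPM in WT 1, 2 and 3. Its estimate was -0.52 on the log2 scale (SE 0.15), with an edgeR adjusted p = 0.145. Dmxl2, its paralog, had 22.8, 25.5 and 24.3 CPM in DKO and 30.1, 34.2 and 30.3 CPM in WT, a difference of -0.38 on the log2 scale (SE 0.089) with an edgeR adjusted p = 0.095. Wdr7, the paralog of Wdr72, had 47.5, 44.7 and 43.0 CPM in DKO and 55.4, 52.3 and 47.7 CPM in WT, a difference of -0.20 (SE 0.081) with an edgeR adjusted p = 0.247.

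So Wdr72, Dmxl1, Dmxl2 and Wdr7 each had all DKO libraries below all WT libraries, as 11.8% of tested genes did, and Rogdi did not. The annotated exons of these 4 genes, merged over all transcripts, total 7.49, 21.9, 13.3 and 10.2 kb, against 2.34 kb for Rogdi. Those of Ltbp3 total 9.07 kb, and its log2 fold change was -0.025, with overlapping groups. Over all tested genes the median log2 fold change declined with exonic length, and was 0.053 for 2155 genes under 2 kb and -0.080 for 3349 genes over 7 kb. With an offset for exonic length the log2 fold changes were -0.47 for Wdr72, -0.30 for Dmxl1, -0.26 for Dmxl2 and -0.12 for Wdr7, none called by edgeR, where 0.931% of genes were called. The part of length in these values beyond that was not tested.

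Over the whole list, 16 of the 24 estimates were above 0. Atp6v0e, a small subunit of the membrane sector, had 141, 147 and 139 CPM in DKO 1, 3 and 4, against 102, 122 and 109 CPM in WT 1, 2 and 3. It had the lowest adjusted p of the list by edgeR (0.0912), and it was named after its value was seen. The genes of the kidney-type subunits Atp6v1b1, Atp6v1g3 and Atp6v0a4 were too low to be tested, with Atp6v1g3 at 0 counts in all libraries.

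Of the 10 other FAM83 and casein kinase 1 genes, 8 were tested and none passed by edgeR or DESeq2. At an unadjusted edgeR p below 0.05, 1 was lower, beside 9.37% of all tested genes. That gene was Fam83f, a family member that, like the rest, carries the domain that binds casein kinase 1. It had 30.7, 25.6 and 27.9 CPM in DKO, against 36.5, 33.7 and 33.1 CPM in WT, which is -0.29 on the log2 scale (SE 0.092) with an edgeR adjusted p = 0.169. By FPKM, Fam83g was the most abundant of the listed FAM83 genes, at 32.2 in DKO and 32.6 in WT, above Fam83h itself. Fam83b averaged 12.9 CPM in DKO and 14.4 CPM in WT. Fam83a averaged 0.675 and 2.01 CPM and Fam83d 4.32 and 2.68 CPM in DKO and WT. Fam83c and Fam83e were below the count filter.

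The kinases that FAM83H anchors were nearly level between the genotypes. All DKO libraries were still below all WT libraries for Csnk1a1 and, narrowly, for Csnk1d, as for 11.8% of tested genes. Csnk1a1 ran from 291 to 299 CPM in DKO and 303 to 317 CPM in WT. Csnk1d averaged 156 ± 7.53 CPM in DKO and 163 ± 0.403 CPM in WT, and Csnk1e 44.8 ± 2.72 CPM in DKO and 44.4 ± 3.50 CPM in WT (SD, n = 3 each). Their edgeR adjusted p ran from 0.683 to 0.956, and the widest of their unadjusted 95% intervals, that of Csnk1e on the upper side and of Csnk1a1 on the lower, reached 0.21 and -0.23 on the log2 scale. The keratins Krt5 and Krt14, which form the filaments of this epithelium, did not pass, Krt5 at -0.54 on the log2 scale (SE 0.13, edgeR adjusted p = 0.107) and Krt14 at -0.47 (SE 0.14, edgeR adjusted p = 0.148).

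Of the 6 RELT relatives and partners all were tested and none passed by edgeR or DESeq2. Rell1, a close homolog, had 101, 121 and 122 CPM in DKO, against 108, 104 and 82.5 CPM in WT. Rell2 was barely expressed, at 0.481 CPM in DKO and 0.722 CPM in WT. The kinase gene Oxsr1, whose product binds RELT family proteins, had 49.3, 49.7 and 50.9 CPM in DKO, against 63.3, 55.6 and 57.2 CPM in WT. Its groups did not overlap, with all DKO libraries lower, as for 11.8% of tested genes. The log2 fold change of Oxsr1, -0.23 (SE 0.072), had an edgeR adjusted p = 0.165. Stk39, which encodes the related kinase SPAK, averaged 29.2 ± 5.04 CPM in DKO and 38.0 ± 13.7 CPM in WT (SD, n = 3 each), with its highest value, 53.7 CPM, in WT 1.

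Of 19 genes around latent TGF-beta all were tested and 0 passed by edgeR. At an unadjusted edgeR p below 0.05, 4 were higher and 3 lower in DKO, beside 8.67% and 9.37% of all tested genes. By DESeq2, which called 3.14% of all genes higher and 2.39% lower, the integrin subunit genes Itgb6 and Itgb8 passed. Their log2 fold changes were 0.53 and -0.90, with DESeq2 adjusted p of 0.0231 and 8.73e-05. Both subunits form receptors that release active TGF-beta. By edgeR the adjusted p of Itgb8 was 0.0614, or 0.0425 without WT 1, 0.0399 without WT 2 and 0.0045 without a low-count filter. Those 3 alternative fits called 26 of 14981, 211 of 15046 and 242 of 25264 tested genes lower. Itgb8 had 41.1, 47.8 and 48.2 CPM in DKO 1, 3 and 4, against 112, 72.4 and 72.7 CPM in WT 1, 2 and 3. Itgb6, whose mutation also causes enamel defects, had 93.2, 119 and 100 CPM in DKO and 57.7, 82.9 and 75.9 CPM in WT (edgeR adjusted p = 0.135). It passed by edgeR with the replicate block (adjusted p = 0.0357) and without a low-count filter (adjusted p = 0.0413). Those fits called 132 of 14721 and 312 of 25264 tested genes higher.

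The paralogs of Ltbp3 had estimates on both sides of 0. Ltbp1 averaged 27.6 ± 3.79 CPM in DKO and 41.8 ± 12.4 CPM in WT, a difference of -0.60 on the log2 scale (SE 0.21) with an edgeR adjusted p = 0.203. It passed with the replicate block (log2 fold change -0.84, edgeR adjusted p = 0.0166, where 1.33% of genes were called lower). Ltbp4 averaged 170 ± 6.14 CPM in DKO and 148 ± 3.38 CPM in WT (0.20 on the log2 scale, SE 0.067, edgeR adjusted p = 0.195). Its groups did not overlap, with all DKO libraries higher, as for 11.4% of tested genes. Ltbp2 averaged 10.8 CPM in DKO and 10.8 CPM in WT. By FPKM, Ltbp3, at 54.0 in DKO and 54.6 in WT, was the most abundant LTBP gene, ahead of Ltbp4 at 31.7 and 28.4. The ligand genes Tgfb1, Tgfb2 and Tgfb3 differed by 0.15 (SE 0.12), -0.0055 (SE 0.096) and 0.36 (SE 0.18) on the log2 scale, without passing (edgeR adjusted p from 0.348 to 0.984). Tgfb1 was the most abundant ligand, at 225 FPKM in DKO and 204 FPKM in WT.

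Among 26 tested genes of other inherited enamel defects, 1 passed the edgeR test, and it was higher in DKO. This was Gm1045 (Odaph), a maturation-stage secreted protein gene, with 87.4, 106 and 96.1 CPM in DKO, against 48.6, 44.1 and 34.0 CPM in WT (log2 fold change 1.19, edgeR adjusted p = 0.0135). By DESeq2 the list held 5 genes higher, Gm1045, Amtn, Cnnm4, Lamb3 and Itgb6, and 1 lower, Col17a1. Over all genes DESeq2 called 3.14% higher and 2.39% lower. Of these 26 genes, 21 had a positive estimate and the median was 0.20, against -0.0068 over all genes, while Wdr72, Fam83h and Ltbp3 had negative estimates, as 5 of the 26 did. Col17a1, a hemidesmosome collagen gene, was lower in DKO at 814, 747 and 697 CPM, against 1321, 1052 and 1132 CPM in WT, without passing by edgeR (adjusted p = 0.0641). It passed by DESeq2 (adjusted p = 1.008e-05), and by edgeR without a low-count filter (adjusted p = 0.0297) or without WT 2 (adjusted p = 0.045). Those edgeR fits called 242 of 25264 and 211 of 15046 tested genes lower. Amtn, Cnnm4, Lamb3 and Col17a1 were named after their values were seen. Leaving out DKO 3 or DKO 4 ended the call of Gm1045.

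Of 16 tested maturation-stage genes, Gm1045 and the carbonic anhydrase gene Car6 were called higher and none lower by edgeR, and the call of Car6 ended without any 1 of DKO 1, DKO 3, DKO 4, WT 1 or WT 3. The summed level of this list was 27290, 31720 and 32310 CPM in DKO 1, 3 and 4, against 31930, 29500 and 24460 CPM in WT 1, 2 and 3, so the groups overlapped. The median log2 fold change of the list was 0.24, with 11 estimates above 0 and 5 below.

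Maturation-stage genes thus stood on both sides of 0, and Wdr72, which is known from ameloblasts of that stage, had a negative estimate as those 5 did. The anion exchanger gene Slc26a4 had 1.65, 0.815 and 2.03 CPM in DKO 1, 3 and 4, against 17.3, 2.42 and 32.6 CPM in WT 1, 2 and 3. Gm17660 had 120, 55.6 and 61.8 CPM in DKO, against 600, 174 and 380 CPM in WT. Neither overlapped between the genotypes, all DKO libraries being lower as for 11.8% of tested genes, and WT 2 was the lowest WT library for both. By edgeR their log2 fold changes were -3.54 (SE 0.85, adjusted p = 0.101) and -2.28 (SE 0.47, adjusted p = 0.0711). Both were called lower by DESeq2, where the list held 3 genes higher and 2 lower, beside 3.14% and 2.39% of all genes. They were also called lower by edgeR without a low-count filter, with the replicate block and without WT 2. Those edgeR fits called 242 of 25264, 196 of 14721 and 211 of 15046 tested genes lower. Odam, a secreted protein gene of this stage, had 10480, 10420 and 12220 CPM in DKO, against 19390, 13420 and 13200 CPM in WT, also without overlap (log2 fold change -0.47, SE 0.21, edgeR adjusted p = 0.294). These 3 genes were named after their values were seen.

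None of 9 secretory-stage genes passed by edgeR. At an unadjusted edgeR p below 0.05, 1 was higher in DKO, beside 8.67% of all tested genes. All 9 had a positive estimate, with a median of 0.21, as 7168 of the 14721 tested genes did. The genotypes overlapped for each of the 9.

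Markers of other cells stood at different summed levels in the genotypes in several lists, and their part in the differences of the 5 genes between DKO and WT was not tested. The summed level of 8 dental epithelium markers was 7160 to 7390 CPM in DKO and 9233 to 10700 CPM in WT, with no overlap, and 7 of 8 had a negative estimate. Of 7 tested oral keratinocyte genes all had a negative estimate and Krt6a was called lower, with a sum of 345 to 533 CPM in DKO and 695 to 845 CPM in WT. All 8 endothelial markers (sums 380 to 417 CPM in DKO and 268 to 338 CPM in WT) and all 8 leukocyte markers (162 to 276 CPM in DKO and 116 to 161 CPM in WT) had positive estimates, with none called. The sum of 12 mesenchyme and odontoblast markers overlapped, at 10560 to 13210 CPM in DKO and 6914 to 11230 CPM in WT, and Bglap2 alone of that list was called lower. Muscle markers had sums of 56.2 to 156 CPM in DKO and 73.8 to 293 CPM in WT, and neutrophil markers of 9.52 to 22.1 CPM in DKO and 2.37 to 76.3 CPM in WT, with Retnlg at 0 in 1 library.

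The relations of these sums with the members over the libraries did not pass after adjustment. The highest r was that of Wdr72 with the dental epithelium sum (r = 0.818, exact permutation p = 0.0333, adjusted 0.287; rho = 0.771, exact p = 0.103, adjusted 0.634), with r = 0.476 within the genotypes and 0.795 without WT 1 and WT 2. With the mesenchyme and endothelium sums, r over all 6 libraries was 0.315 and -0.0082 for Fam83h, and 0.429 and 0.118 for Ltbp3. After subtracting each group's mean, r with the mesenchyme sum was 0.905 for Fam83h and 0.902 for Ltbp3, and r with the endothelium sum was 0.946 for Fam83h and 0.933 for Ltbp3. Over all 6 libraries the exact permutation p of these 4 relations was 0.364 or more for r (adjusted 0.781 or more) and 0.564 or more for rho (adjusted 0.967). Their rho was 0.200 and 0.0857 for Fam83h, and 0.314 and 0.143 for Ltbp3. Without the 2 libraries farthest from the median of the sum, r was -0.264 and -0.984 for Fam83h, and 0.217 and -0.787 for Ltbp3.

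**Figure D4:**
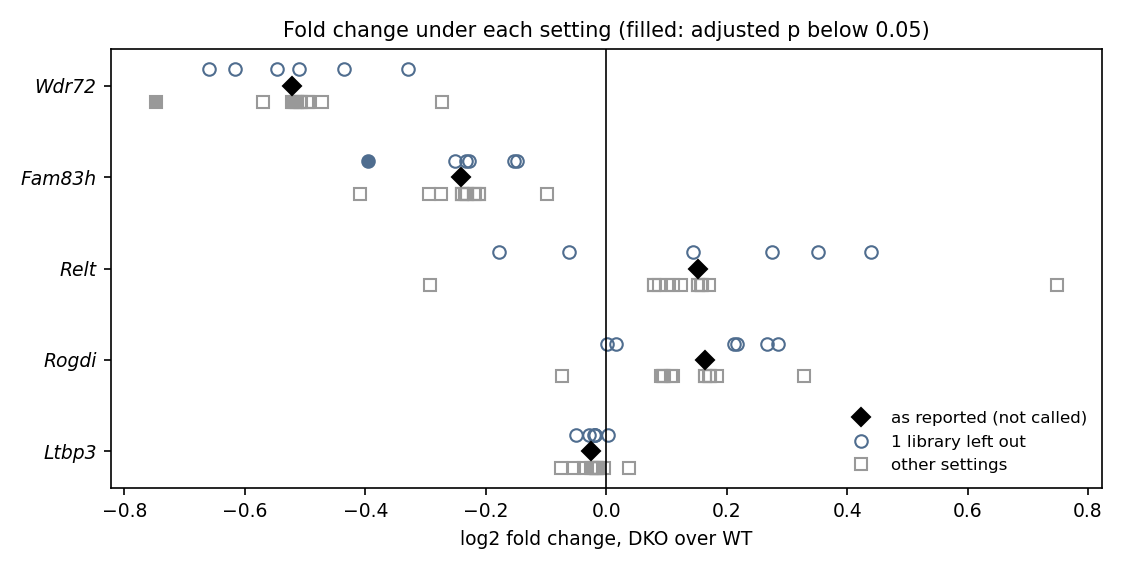
The log2 fold change, DKO over WT, of the 5 genes as reported (black diamonds), with 1 library left out (blue circles) and under the other settings (grey squares); filled symbols passed at an adjusted p below 0.05. Wdr72 and Fam83h stay below 0 throughout, at -0.75 to -0.27 and -0.41 to -0.098, while the points of Relt, Rogdi and Ltbp3 reach both sides of 0.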

How the data were processed

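RNA of 3 DKO and 3 WT libraries was measured by sequencing; per the labels' protocols, 500 ng of total RNA entered an unstranded TruSeq preparation with 12 PCR cycles, read as paired ends of 150 nt. The authors deposited raw counts, as whole numbers for each Ensembl gene. The FPKM values come from gene tables in the Cufflinks layout, per the file headers. The submitters' processing notes name HTSeq, Trimmomatic 0.32, Cufflinks 2.2 and the GRCm38 build. The sources used here do not give the aligner or the counting options. Exons, positions (1-based) and overlaps came from GENCODE on GRCm38.

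DKO was compared with WT over 14721 genes with edgeR 4.0.16 and its quasi-likelihood test (R 4.3.3; TMM, filterByExpr, no covariate), with limma 3.58.1 and DESeq2 1.42.0 as alternatives. A standard error is the log2 fold change over the square root of F, and intervals use the fit's degrees of freedom without adjustment. FPKM tests left out 9 genes with a failed estimate. Tests were checked on simulated counts with 200 changed genes. Every pair of libraries differed by more than sampling noise (chi-square per gene at least 14.3).

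The members and lists were chosen with earlier results of these data known. Named genes are the members, Stim1, Stim2, listed relatives of each member, up to 4 called genes per list and the 3 genes most like each member; others are stated as chosen after their values were seen. A few results under this rule are not reported here. Alternatives were other scalings and low-count filters, the replicate number as a block, a term for Xist above 100 CPM, each library left out, and pseudocounts of 1 or 0.1 on FPKM. The block compares the genotypes through the libraries numbered 1 and 3 only. A length offset (lowess span 0.3) and a term for the secretory-stage sum were added after seeing the data. Intervals and depth cover counting and library spread only.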

Additional observations from a re-analysis of the deposited data

How the results depend on the processing

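With 3 libraries per group, 1 library could end or make a call. With a term for Xist above 100 CPM, Wdr72 was at -0.51 (edgeR adjusted p = 0.281). The number of called genes, 153 as reported, was 554 without a low-count filter, 328 with the replicate block, 826 by DESeq2, 71 with the Xist term, 77 by limma on log2(FPKM + 1) or log2(FPKM + 0.1) and 11 by limma without a filter, and 21 to 335 with 1 library left out (21 without DKO 4, 335 without WT 2). Of the genes of the 7 pathway lists, 2 were called as reported, 8 without a low-count filter, 5 with the replicate block, 12 by DESeq2, 1 with the Xist term, 1 with the secretory term, 0 by limma without a filter, and 0 to 8 with 1 library left out. Wdr72 passed by DESeq2 (-0.51) and with the replicate block (-0.75), and ran from -0.66 to -0.33 with 1 library left out, Fam83h from -0.40 to -0.15, Relt from -0.18 to 0.44, Rogdi from 0.0015 to 0.29 and Ltbp3 from -0.049 to 0.00235. With the secretory term Relt was at -0.29 and Rogdi at -0.074, and with the length offset Ltbp3 was at 0.039; the cause of these changes was not tested. Same-numbered libraries share only a number: their deviations correlated at 0.188 for number 1 and 0.0055 for number 3, and the block changed no other member's call. The split of calls was 108 higher and 45 lower as reported and 102 higher and 64 lower on total counts.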
